A study of Mus musculus with 2 samples.

Results

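Chemokines are small secreted proteins that direct the movement of white blood cells through receptors coupled to G proteins. CC chemokines mainly draw monocytes, eosinophils and lymphocytes, and CXC chemokines mainly draw neutrophils and lymphocytes. In skin they come from keratinocytes, fibroblasts, endothelium and resident leukocytes, and they set which cells enter and stay. The genes described here are all those whose name in the array files is Ccl, Cxcl, Ccr or Cxcr with a number, or Cx3cl1, Cx3cr1 or Xcr1. There were 52 such genes of 23650 on the array, with 67 of its 39429 probes and 76 of its 43020 spots outside the controls. They comprised 34 ligands, of which 20 were CC ligands, 13 CXC ligands and the other Cx3cl1, and 18 receptors.

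The samples were skin of C57BL/6N mice at postnatal day 0, homozygous for the deletion of Pla2g4e (Pla2g4e-/-, knockout) or with both copies intact (Pla2g4e+/+, wild type). Pla2g4e encodes an enzyme that makes precursors of N-acylethanolamine lipids. Each genotype had 1 array, hybridised with Cy3-labelled RNA pooled from 5 animals, so there was no replicate and no difference was tested. The question was how the skin of newborns without the enzyme differed in gene expression from that of wild-type newborns. A level is the processed signal of a gene's probe, an intensity on a linear scale from which the scanner software had subtracted the background. A difference is log2 of the knockout signal minus log2 of the wild-type signal, after each array was scaled to the 75th percentile of its probes. The error beside a difference is the scanner software's own and describes spots, not animals. Probes bind their targets with unlike strength, so the signals of different genes are not ranked.

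The arrays had median signals of 249 (wild type) and 241 (knockout), and 78.0% and 80.8% of probes were well above background, the software's mark for a detected spot. All 7 keratinocyte genes checked, Krt5 and Krt14 among them, were measured in both pools, and their differences lay between -0.05 and 0.30. The brighter of the Pla2g4e probes had a signal of 662 in wild-type skin and 320 in knockout skin. The dimmer had 10.6 and 11.7, and passed the mark on the knockout array alone. The deleted part of the gene is not named in the sources used here, so neither probe checks the genotype. The Y-linked genes Ddx3y, Eif2s3y, Kdm5d and Uty passed the mark on the wild-type array alone, and Xist was 1.95 (log2) higher on the knockout array. Genotype, position on the slide and the sex of the pooled animals therefore cannot be told apart in any value below. Nor can fewer cells of a type be told apart from less RNA per cell.

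Most of the chemokine system was detectable in newborn skin. Of the 52 genes, 41 (78.8%) were well above background on both arrays, beside 80.2% of all gene names. Cxcl3 passed that mark in the wild-type pool alone and Ccr6 in the knockout pool alone. The other 9 passed it in neither pool: the ligands Ccl20, Ccl22, Ccl26, Cxcl2 and Cxcl15 and the receptors Ccr1, Cxcr1, Cxcr5 and Xcr1. Among these, Cxcl2 had signals of 6.41 and 12.3 in the wild-type and knockout pools, and Cxcr1 had 4.62 and 9.06. No fold is given for genes below background in both pools. By role, every interferon-induced CXC ligand (3 of 3), every ligand of the MIP and RANTES class (5 of 5) and 6 of 7 ligands of the MCP and eotaxin class were measured. Of the 5 neutrophil-attracting CXC ligands, 2 were measured on both arrays.

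**Figure D1:**
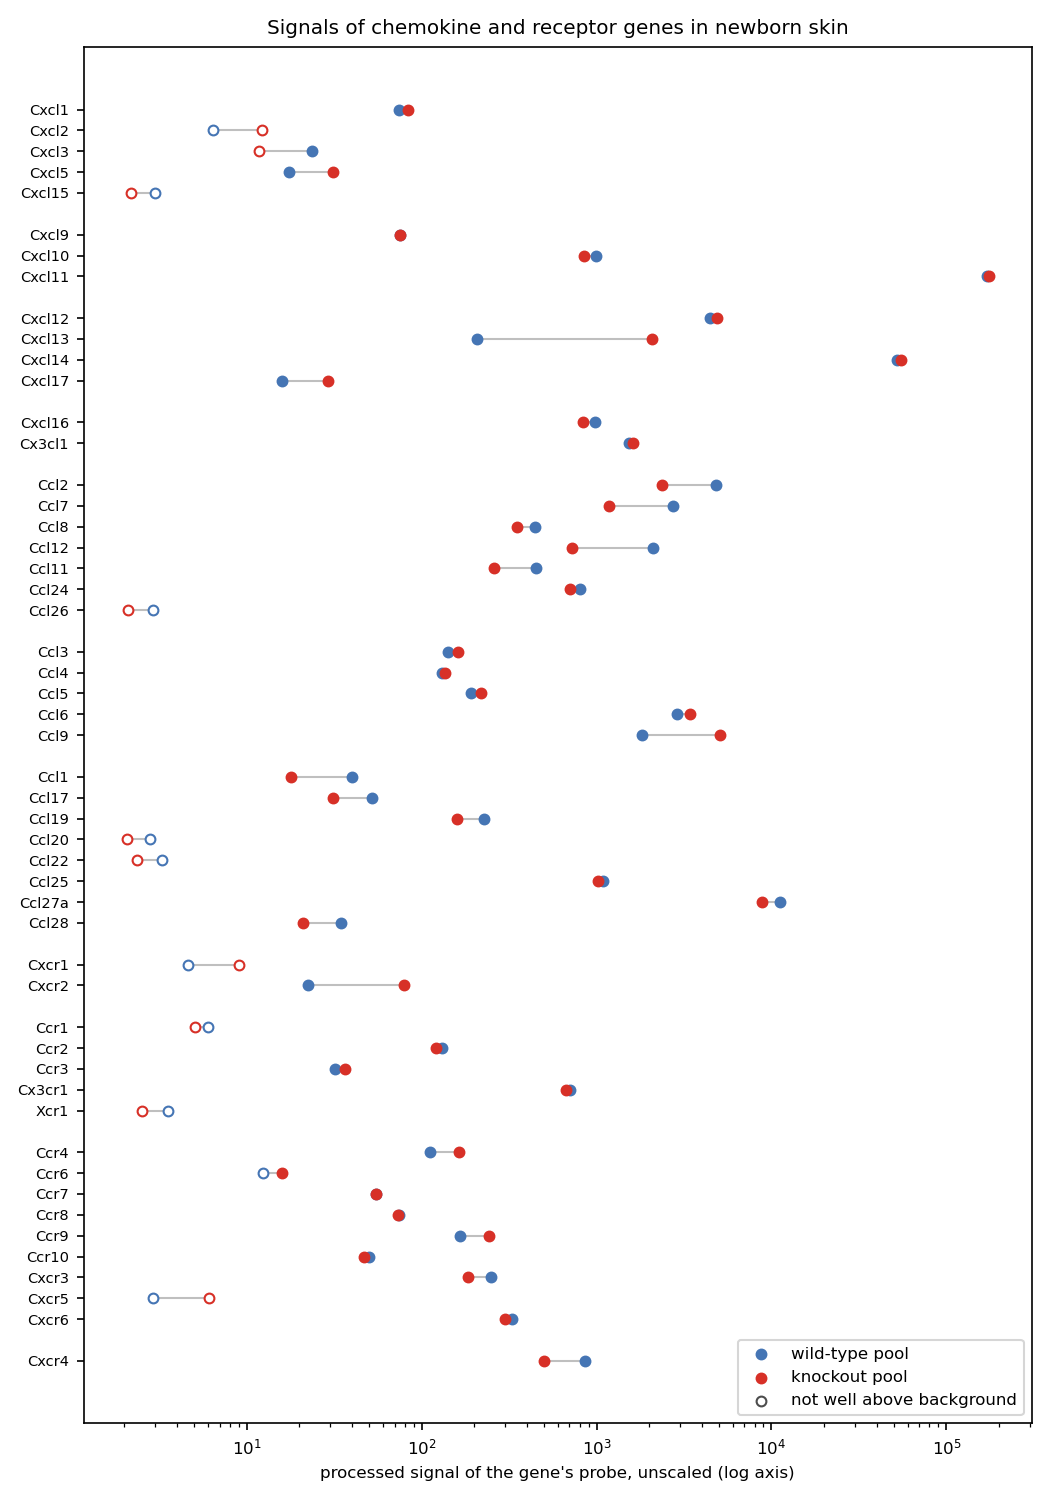
Processed signal (log axis) of the representing probe of each gene shown in the wild-type pool (blue) and the knockout pool (red), in blocks by role, with open circles where a probe was not well above background. The widest gaps between filled circles are those of Cxcl13, Cxcr2, Ccl9 and Ccl12, and most other filled circles of a gene lie close together.

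At a fixed size of 1.5-fold, 7 of the 41 measured genes were higher in the knockout pool (17.1%), beside 6.77% of all 18962 genes measured. Another 8 were lower (19.5%), beside 4.41% of all genes. These shares of all genes are the ones to set beside each later count at 1.5-fold under this processing. Differences of at least 1.5-fold in either direction made up 36.6% of the measured members and 11.2% of all genes. At 2-fold, Cxcl13, Cxcr2 and Ccl9 were higher, beside 2.26% of all genes, and Ccl12, Ccl7 and Ccl1 were lower, beside 1.4%. The remaining 26 lay between the 1.5-fold limits. The median difference was 0.07 over the members and 0.01 over all genes, and 22 members lay above 0 and 19 below. The interquartile range of the differences was 0.53 over the members and 0.37 over all genes. Large differences were more frequent among dim genes: 19.0% of all genes in the dimmest of 4 equal bins of mean signal passed 1.5-fold, and 12.7%, 8.33% and 4.68% in the next bins. The measured members in these bins numbered 17, 13, 7 and 4, and 7, 4, 4 and 0 of them passed 1.5-fold. The genes that passed 1.5-fold by the least were Ccr9 (0.63) and Ccr4 (0.65) on the higher side and Ccl17 (-0.64) and Ccl28 (-0.65) on the lower side. Closest to the limits among the genes between them were Ccl6 (0.34) and Ccl19 (-0.42).

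**Figure D2:**
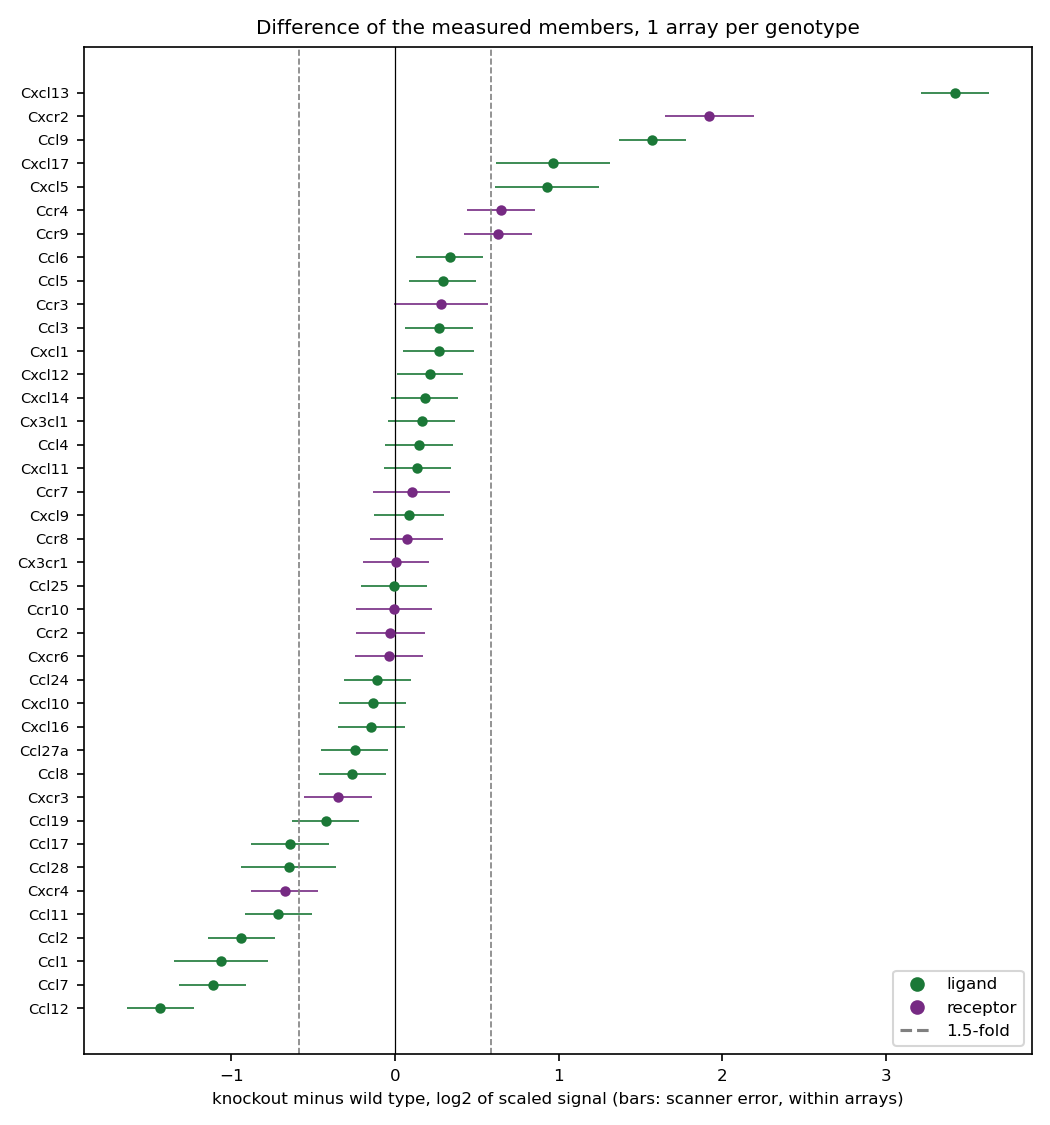
Difference of each measured gene shown (log2, knockout minus wild type) with the scanner error as bars, ligands in green and receptors in purple, and dashed lines at 1.5-fold. Cxcl13, Cxcr2 and Ccl9 stand at the upper end and Ccl12, Ccl7 and Ccl1 at the lower end, while most genes lie between the dashed lines.

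**Figure D3:**
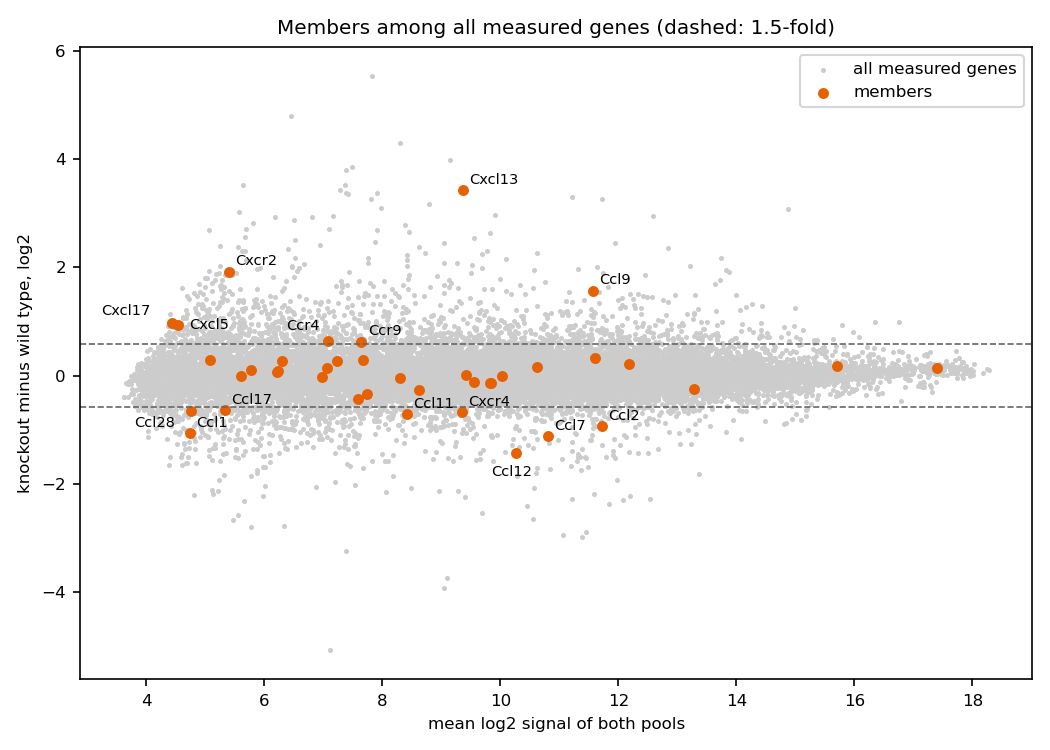
Difference (log2, knockout minus wild type) against mean log2 signal of both pools, for the 18962 measured genes in grey and the measured members in orange. Cxcl13 lies far above the dense part of the grey points, and Ccl12, Ccl7 and Ccl2 lie under the lower dashed line at a middle to high signal.

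Of 17 CC ligands measured, 7 were lower by 1.5-fold or more in knockout skin (41.2%), beside 4.41% of all genes. Another 1 was higher, beside 6.77% of all genes, 9 lay between the limits, and the median difference was -0.26. Under normexp, another correction for background, 4 were lower (Ccl2, Ccl7, Ccl11 and Ccl12), beside 2.18% of all genes. On chromosome 11 the probes of 11 CC ligands lie in 2 groups separated by 1349 kb (mm9 positions, per the file headers). The first group spans 140 kb, from 81850650 to 81990227, and holds Ccl2, Ccl7, Ccl11, Ccl12, Ccl8 and Ccl1 in that order. All 6 were below 0, and all but Ccl8 were at least 1.5-fold lower, with a median of -1.0. The second group spans 139 kb, from 83339296 to 83478111, and holds Ccl5, Ccl9, Ccl6, Ccl3 and Ccl4. All 5 were above 0, with a median of 0.29, and Ccl9 alone was at least 1.5-fold higher. These signs held under all 9 alternative ways of processing, although a filter on signal left 3 and 2 of these genes to be measured. Only quantile normalization and normexp could move these genes singly, as the other alternatives shifted all genes alike or left their values unchanged.

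**Figure D4:**
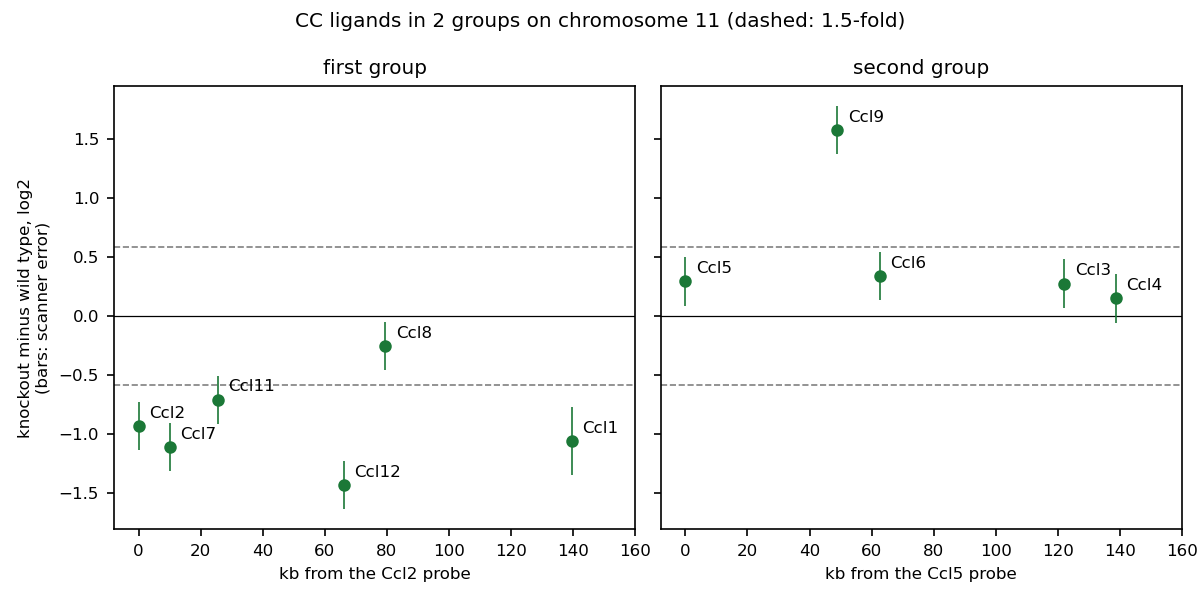
Difference (log2, knockout minus wild type, bars for scanner error) of the CC ligands of chromosome 11 against distance in kb from the first probe of each group, with dashed lines at 1.5-fold. All 6 points of the first group lie below 0 and all 5 of the second group above it.

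The first group holds Ccl2, Ccl7 and Ccl12, which recruit monocytes through Ccr2. Ccl12 had a signal of 2095 in wild-type skin and 728 in knockout skin, a difference of -1.43 ± 0.20 (scanner error), so that the knockout pool had 37.0% of the wild-type level. Ccl7 had 2722 and 1181, a difference of -1.11 ± 0.20, or 46.2% of the wild-type level. Ccl2, the best-known ligand of Ccr2, had 4805 and 2356, a difference of -0.94. Its probe is the single member probe printed more than once on the array. Its 10 spots ran from 4588 to 5193 in the wild-type pool, with a median of 4790. In the knockout pool they ran from 2238 to 2542, with a median of 2371. The spots of the pools did not overlap, which shows the precision of an array and leaves out the animals. Ccl8, a neighbour counted in the MCP and eotaxin class, differed less, at 446 and 350 (-0.26 ± 0.20).

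The eotaxins recruit eosinophils through Ccr3. Ccl11 had a signal of 452 in wild-type skin and 259 in knockout skin, a difference of -0.71 ± 0.20. Ccl24, whose gene lies outside chromosome 11, had 808 and 704, a difference of -0.11. In the whole MCP and eotaxin class, all 6 measured ligands were below 0, and 4 of them were at least 1.5-fold lower. The receptors Ccr2 and Ccr3 did not share that size of difference: Ccr2 had 131 and 121 (-0.03), and Ccr3 had 31.8 and 36.3 (0.28). Of 13 measured markers of monocytes and macrophages, 0 were at least 1.5-fold lower, beside 4.41% of all genes. As much higher were 2, Cd163, and Lyve1, which lymphatic endothelium also expresses, beside 6.77% of all genes. The median of these markers was 0.29. Their summed signal was 54304 (wild type) and 58092 (knockout). Of the 3 eosinophil markers measured on both arrays, Ear1 was lower (-1.14) and the others were between the limits. Another eosinophil marker, Prg2, was above the mark on the wild-type array alone, and Epx in the knockout pool alone.

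RefSeq promoter windows (build GRCm38.p6) were matched for 37 of the 52 genes, with 41 windows, and the 250 bases before each start site were searched. The window of Ccl12 is shown because it had the lowest difference of all members, and those of Ccl9 and Cxcl13 because they were the ligands with the highest differences. The sequences run 5′ to 3′ along the gene, and capitals mark matches to TATAAA on the plus strand, to the AP-1 letters TGANTCA on either strand and to the kappaB element on either strand. The windows are Ccl12 at chr11:82101595-82101844 on the plus strand, Ccl9 at chr11:83578637-83578886 on the minus strand and Cxcl13 at chr5:95956689-95956938 on the plus strand.
Ccl12: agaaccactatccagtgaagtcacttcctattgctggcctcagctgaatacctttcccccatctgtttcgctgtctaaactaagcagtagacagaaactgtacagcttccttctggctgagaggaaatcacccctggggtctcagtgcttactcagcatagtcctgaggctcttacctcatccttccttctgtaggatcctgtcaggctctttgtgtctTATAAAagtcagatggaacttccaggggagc
Ccl9: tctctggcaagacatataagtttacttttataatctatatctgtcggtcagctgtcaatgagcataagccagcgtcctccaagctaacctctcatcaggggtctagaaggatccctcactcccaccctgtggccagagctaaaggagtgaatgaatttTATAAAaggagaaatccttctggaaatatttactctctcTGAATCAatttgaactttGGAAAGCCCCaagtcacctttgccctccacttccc
Cxcl13: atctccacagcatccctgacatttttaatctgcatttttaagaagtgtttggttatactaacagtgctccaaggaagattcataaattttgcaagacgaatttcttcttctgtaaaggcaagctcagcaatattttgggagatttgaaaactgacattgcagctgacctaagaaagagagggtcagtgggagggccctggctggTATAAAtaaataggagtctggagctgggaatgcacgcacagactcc
Ccl12 and Cxcl13 each held a TATAAA match, at 31 to 26 and at 46 to 41 bases before the start site. Ccl9 held one at 92 to 87 bases, an AP-1 match at 53 to 47 bases and a kappaB match at 35 to 26 bases. Over the 41 member windows, 10 (24.4%) held a kappaB match and 10 (24.4%) a TATAAA match, beside 7.25% and 7.59% of all 32851 promoters. AP-1 matches stood in 5 windows (12.2%), beside 6.75%, and GAS matches (TTCNNNGAA, the letters read by STAT factors) in 3 (7.32%), beside 7.02%. Among the 7 genes at least 1.5-fold higher, 5 had a window, and 1 of these held a kappaB match and 2 an AP-1 match. Among the 8 that were lower, 5 had a window, with 1 kappaB match (Ccl1), 1 GAS match (Ccl17) and no AP-1 match. The lower ligands Ccl2, Ccl7 and Ccl11 had no window, so these matches do not describe them. A match is a stretch of letters and not a measured binding site.

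The MIP and RANTES class, whose products act on macrophages, T cells and granulocytes through receptors such as Ccr1 and Ccr3, was led by Ccl9. Wild-type skin gave a signal of 1824 and knockout skin 5088, a difference of 1.57 ± 0.20, or 2.97-fold. Ccl6, which adjoins Ccl9 on chromosome 11 and acts on myeloid cells, had 2874 and 3404 (0.34). Ccl5, a T cell and monocyte attractant, had 191 and 219 (0.29), Ccl3 had 142 and 160 (0.27), and Ccl4 had 131 and 136 (0.15). All 4 of these differed by less than 1.5-fold, and Ccl4 by less than its scanner error of 0.21. The receptor Ccr1 was below background in both pools, with signals of 6.03 and 5.08. Between the chromosome 11 groups lay 22 other measured genes, with a median of 0.28. Of them, 4 were at least 1.5-fold higher, beside 6.77% of all genes, and none was lower, beside 4.41%. The 4 were Slfn4 (1.83), Slfn2 (0.76), AI662270 (0.68) and Unc45b (0.65). Within 1000 kb after the second group, 12 other genes were measured, of which none was higher and 2 were at least 1.5-fold lower, with a median of 0.02.

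Ligands that guide T cells and dendritic cells to skin, mucosa and lymph nodes were all below 0 where measured (6 of 6), except that 1 lay above 0 when a gene's probes were averaged. Of these, 3 were at least 1.5-fold lower. Ccl1, a ligand of Ccr8 on T cells, had a signal of 39.8 in wild-type skin and 17.9 in knockout skin, a difference of -1.06 ± 0.29. Another probe, which the files describe as Ccl1 but list under a transcript identifier, had 32.2 and 32.8 (0.12 ± 0.27). The probes for Ccl1 therefore did not show the same difference. Ccl17, which draws skin-homing T cells through Ccr4, had 51.8 and 31.2, a difference of -0.64 ± 0.24. Ccl28, an epithelial ligand of Ccr10, had 34.8 and 20.9, a difference of -0.65 ± 0.29. These 3 genes had low signals, and under normexp their differences shrank to -0.20 for Ccl1, -0.16 for Ccl17 and -0.15 for Ccl28.

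The keratinocyte chemokine Ccl27a, the other ligand of Ccr10, had signals of 11172 and 8852, a difference of -0.24. Its 3 probes ran from -0.26 to 0.25 and differed in sign, and the brighter ones, which share 48 bases of sequence, were both below 0. Ccl19, which guides dendritic cells and naive T cells through Ccr7, had 229 and 160 (-0.42). The 3 Ccl19 probes ran from -1.42 to -0.28, and their mm9 positions lie at 3 separate places on chromosome 4. The value of Ccl19 is therefore uncertain, since the probes may read different copies of the gene. Ccl25, the ligand of Ccr9, had 1086 and 1016, a difference of 0.00, with probes of unlike sign between -0.04 and 0.09. Over the Langerhans and dendritic cell list, 5 of 11 measured genes lay 1.5-fold or more below the wild-type pool, beside 4.41% of all genes. Another 1 lay as far above it, beside 6.77%, and the median was -0.47. The 5 were H2-Ab1, H2-Eb1, H2-Aa, Flt3 and Cd74, the higher one was Irf8, and Cd207, which defines Langerhans cells, was below background in both pools. Epcam (-0.09), Itgax (0.09), Zbtb46 (0.14), Batf3 (0.18) and Cd209a (-0.47) lay between the limits. The list summed to a signal of 16346 (wild type) and 10210 (knockout), most of it from H2-Ab1, H2-Eb1 and Cd74. Its part in the lower homing ligands was not tested.

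The CXC ligands showed no member at least 1.5-fold lower on both arrays. Of 10 measured, 3 were higher, and the median difference was 0.20. Cxcl13, which draws B cells through Cxcr5, had the highest difference of all members. Wild-type skin gave a signal of 207 and knockout skin 2084, a difference of 3.42 ± 0.21, or 10.7-fold. It stood at place 10 from the highest among 18962 genes. Its receptor Cxcr5 was below background in both pools (2.90 and 6.10). All 5 B cell markers were measured, and none was at least 1.5-fold higher. Ms4a1 was lower (-1.33), and their summed signal was 501 and 545.

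The neutrophil-attracting CXC ligands signal through Cxcr2. The windows of Cxcl1, Cxcl2 and Cxcl3, neighbours on chromosome 5, are shown because all 3 hold the same kappaB letters, in capitals, on the plus strand. They are Cxcl1 at chr5:90891159-90891199, Cxcl2 at chr5:90903787-90903827 and Cxcl3 at chr5:90786013-90786053 (GRCm38.p6).
Cxcl1: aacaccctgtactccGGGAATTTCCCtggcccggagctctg
Cxcl2: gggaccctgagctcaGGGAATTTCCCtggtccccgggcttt
Cxcl3: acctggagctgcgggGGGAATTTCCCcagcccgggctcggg
The 11 letters lie 71 to 61 bases before the start site in Cxcl1, 97 to 87 in Cxcl2 and 73 to 63 in Cxcl3. Cxcl1 had a signal of 74.0 in wild-type skin and 83.7 in knockout skin (0.27). Cxcl3 was above the mark on the wild-type array alone, with 23.8 and 11.7, a difference of -0.93 ± 0.42, or 1.91-fold lower in the knockout pool. A bound sets the wild-type value against the higher of the dim probe's own signal and the lowest signal well above background on that array. Here the probe's own signal was the higher, so the bound equals the observed difference and is not a least size. Cxcl2 was below background in both pools. Cxcl5, which lies in the same group of genes, had 17.4 and 31.2, a difference of 0.93 ± 0.32, close to the dimmest signals that were measured.

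Cxcr2, the receptor of these ligands on neutrophils, had a signal of 22.4 in wild-type skin and 79.6 in knockout skin, a difference of 1.92 ± 0.27, or 3.79-fold. Under normexp it was 1.01. On the neutrophil list, 7 of the 12 genes detected in both pools lay 1.5-fold or more above the wild-type pool. Another 2 lay as far below it, and the median was 1.09. The highest were Mmp8 (2.56) and S100a9 (2.36), and the lower ones were Camp (-1.004) and Padi4 (-0.75). Mpo (0.54), Elane (0.05) and Csf3r (-0.04) lay inside the limits. The list's summed signal was 134676 (wild type) and 141069 (knockout), most of it from Csf3r (125040 and 113910). Among the higher genes, S100a8 had signals of 1631 (wild type) and 6160 (knockout), S100a9 had 3357 and 16197, and Lcn2 had 564 and 1835. The RNA came from whole skin, and which of its cells gave these signals was not tested. The part of neutrophil number in the Cxcr2 value was not tested either. Cxcr1, the other neutrophil receptor, was below background in both pools.

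The interferon-induced ligands Cxcl9, Cxcl10 and Cxcl11, which draw activated T cells through Cxcr3, were within the limits. Cxcl9 had signals of 75.4 and 75.03 (0.09), Cxcl10 had 997 and 852 (-0.14), and Cxcl11 had 169549 and 174917 (0.14). The other Cxcl11 probe had 16063 and 15275 (0.02), so that both probes gave small differences at unlike signals. Which transcripts these probes read was not checked, so the level of Cxcl11 in skin is uncertain. Cxcr3 itself had 250 and 184, a difference of -0.35.

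Among the constitutive CXC ligands, Cxcl12, which holds stem cells and leukocytes through Cxcr4, had 4456 and 4852 (0.21). Cxcl14, a ligand made by epithelia, had 51959 and 55316 (0.18). Cxcl17, a mucosal ligand, was higher, with 15.9 in wild-type skin and 29.2 in knockout skin (0.96 ± 0.35). Its error was the largest among the members measured on both arrays, and under normexp its difference was 0.40. The ligands anchored in the cell membrane differed little: Cx3cl1 had 1542 and 1621 (0.16), and Cxcl16 had 982 and 835 (-0.14). Their receptors Cx3cr1, on macrophages, with 704 and 664 (0.01), and Cxcr6, on T cells, with 329 and 301 (-0.04), differed little as well.

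Among the receptors, 13 of 18 were measured on both arrays. Of these, 3 were at least 1.5-fold higher, 1 was lower, and the median was 0.07. Cxcr4, the receptor of Cxcl12 on many cell types, was the lower one, with a signal of 854 in wild-type skin and 502 in knockout skin (-0.67 ± 0.20). Ccr4, carried by skin-homing and Th2 cells, was higher, with 112 and 164 (0.65 ± 0.21). Ccr9, carried by gut-homing T cells, was also higher, with 166 and 241 (0.63 ± 0.21), but lay just inside the limit under median scaling (0.583). The second Ccr9 probe was dim, at 11.4 and 16.0, and above the mark on the knockout array alone. Ccr7 had 54.7 and 55.1 (0.10), Ccr8 had 74.5 and 73.5 (0.07), and Ccr10 had 50.2 and 46.9 (-0.01). Ccr6, which pairs with Ccl20, had 12.4 and 15.9 and was above the mark on the knockout array alone. Against the lowest wild-type signal well above background, the knockout value was 1.25-fold higher (0.33), less than the probe's scanner error of 0.45. Of the 13 measured T cell and innate lymphocyte genes, 2 were at least 1.5-fold higher (Il2ra, 0.72, and Il7r, 0.66) and 4 were lower, with a median of -0.05. The lower ones were Klrb1c (-1.435), Cd3g (-0.87), Xcl1 (-0.69) and Cd3d (-0.68), while Cd3e lay at -0.07 and Cd4 and Thy1 at -0.02.

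Some ligands and their receptors are set side by side here, and not every pair is shown. Ccl17 was lower (-0.64) where its receptor Ccr4 was higher (0.65), and Cxcl12 lay at 0.21 where Cxcr4 lay at -0.67. Ccl2, Ccl7 and Ccl12 were all lower, and Ccr2 lay at -0.03. Cxcl5 (0.93) and Cxcr2 (1.92) were both higher, while Cxcl1, another ligand of Cxcr2, lay at 0.27. Under normexp Ccl17 (-0.16), Ccr4 (0.50) and Cxcl5 (0.39) lay between the limits. Ccl9 and Cxcl13 were higher where Ccr1 and Cxcr5 were below background in both pools.

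Other genes of the chemokine system, which do not carry these names, held both larger and smaller differences. Of 16 measured, 2 were at least 1.5-fold higher, beside 6.77% of all genes, 1 was lower, beside 4.41%, and the median was 0.08. The platelet chemokine Ppbp, a ligand of Cxcr2, had a signal of 148 in wild-type skin and 2191 in knockout skin (3.98 ± 0.21). The platelet gene Pf4 had 49209 and 67990 (0.56), and 3 of 6 measured platelet genes, Ppbp among them, were at least 1.5-fold higher. Ackr2, an atypical receptor that removes inflammatory CC chemokines, had 395 and 850 (1.20 ± 0.20). Xcl1, the ligand of Xcr1, was lower (-0.69). The decoy receptors Ackr4 (0.58) and Ackr1 (0.45) and the Cxcl12 scavenger Ackr3 (-0.13) were within the limits.

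Markers of other cells that make or answer chemokines were counted as well, beside 6.77% of all genes at least 1.5-fold higher and 4.41% lower. Of 9 blood endothelium genes, all lay above 0 and 4 were at least 1.5-fold higher (Emcn, 0.84; Tie1, 0.77; Cdh5, 0.73; Vwf, 0.64), with a median of 0.56. All 6 lymphatic endothelium genes lay above 0, and 2 were higher, Mmrn1 (0.69) and Lyve1 (0.68), with a median of 0.32. All 8 mast cell genes lay above 0, and 3 were higher, Fcer1a (3.80), Hdc (1.22) and Cpa3 (0.65), with a median of 0.42. The part of these cells in the chemokine values was not tested.

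Genes that act below the receptors numbered 32, all measured. Of these, 4 were at least 1.5-fold higher, beside 6.77% of all genes, and 1 was lower, beside 4.41%, with a median of 0.11. The higher ones were Rgs1 (1.67) and Rgs2 (0.87), which switch off G proteins, Pik3r5 (0.81), a subunit of a lipid kinase, and Gng2 (0.59), a G protein subunit. Plcb2, a phospholipase that G proteins activate, was lower (-0.84). Of 27 measured cytokines and sensors that induce chemokines, 5 were at least 1.5-fold higher, 1 was lower, and the median was 0.06. The higher ones were Il33 (1.11), the receptor chain Ifngr1 (1.11), Nfkbia (0.91), Il36g (0.68) and Il1b (0.60), and Tnf was lower (-0.87).

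**Figure D5:**
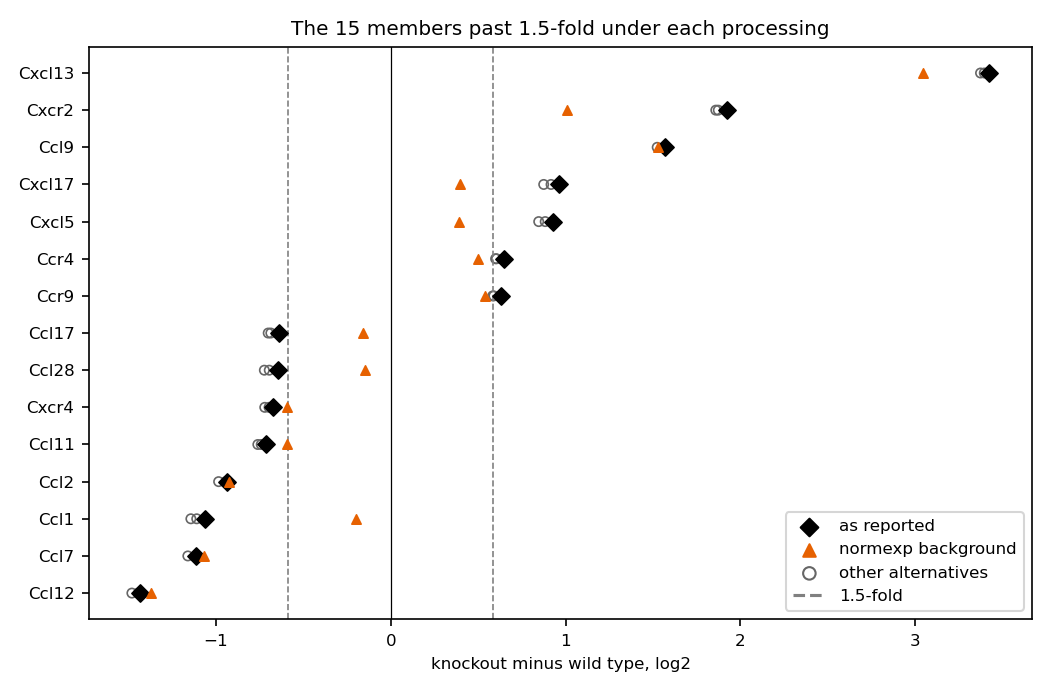
Difference (log2, knockout minus wild type) of the 15 members past 1.5-fold, as reported (black diamonds), under normexp background correction (orange triangles) and under the other alternatives (open circles), with dashed lines at 1.5-fold. All points of a gene lie on the same side of 0, and under normexp 7 of the genes fall inside the dashed lines.

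Of the 15 members past 1.5-fold, 8 stayed past it in every alternative that measured them: Ccl2, Ccl7, Ccl11, Ccl12, Ccl9, Cxcl13, Cxcr2 and Cxcr4. All 124 values of the 15 genes under the 9 alternatives kept their sign. Of the alternatives, only quantile normalization and normexp could move these genes singly. The others shifted all genes alike or left the values unchanged, as each of the 15 had a single measured probe. Normexp brought Ccl1, Ccl17, Ccl28, Cxcl17, Cxcl5, Ccr4 (0.50) and Ccr9 (0.54) inside the limits, and Ccr9 was inside under median scaling too.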

How the data were processed

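RNA was measured on 2 Agilent 1-colour arrays, 1 per genotype, each with 200 ng of RNA from a pool of 5 animals, per the labels. The deposited scanner files give intensity per spot, background-subtracted by the authors' Agilent Feature Extraction 11.5.1.1, per the submitters' processing notes. The deposited value table is a ratio, the processed intensity over a constant per array (2406 for wild type and 2273 for knockout), as a comparison of both files showed, and served as an alternative. Probes are 60 bases long with mm9 positions, per the file headers.

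Control spots and 234 outlier spots were left out. Values were log2 of the processed signal, averaged over a probe's spots, minus the array's 75th percentile. The brightest probe that was well above background on both arrays stood for its gene. Of the probes, 28268 were named through accessions, 2199 through symbols and 174 through synonyms in a RefSeq table (GRCm38.p6), 1097 and the 67 member probes kept the file's name, and 7624 had none. With 1 array per group, no test was run. Genes were counted at 1.5-fold, beside the same share of all genes. Depth has no equivalent on arrays, where their number limits precision.

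Members and lists were chosen with earlier results of these data known. Values are given for members past 1.5-fold, those with a bound of that size, those with probes of unlike sign and those needed to show a role class. From other lists the rule takes up to 2 extremes past 1.5-fold in each direction and defining markers; further genes named to spell out a count, and those between the chromosome 11 groups, were picked after their values were seen. Alternatives covered scaling, quantile normalization, normexp (offset 50, limma 3.58.1 in R 4.3.3), the probe per gene, filters, outlier spots and the deposited table. The rest ran in Python 3.11.15 with numpy 2.4.6 and pandas 2.3.3, and the counting was tested on simulated data. The counts include 1 member that is not reported here.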

Additional observations from a re-analysis of the deposited data

How the results depend on the processing

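No paired analysis was possible because each genotype had 1 array, and no array could be left out for the same reason. The processing used counted 7 members higher and 8 lower at 1.5-fold, so that 46.7% of these were higher. Normexp counted 3 higher and 5 lower (37.5% higher), beside 4.43% and 2.18% of all genes. Its offset of 50 is added to every signal, which draws the differences of dim probes towards 0. A filter on signals above the median of measured genes left 11 members, with 1 higher and 3 lower (25% higher), because fewer members were counted. The shares of all genes under that filter were 4.06% and 2.45%. Median scaling gave 6 and 8, with Ccr9 lost, beside 5.88% and 5.14% of all genes. The mean of a gene's probes gave 7 and 9, beside 6.64% and 4.32%. No filter on dim probes gave 10 and 9 over all 52 genes, beside 9.16% and 5.48%. The other alternatives stayed within 1.5 times of the values used. The median difference of the members ran from 0.00 to 0.14. With the software's milder mark, positive and significant, 46 members in place of 41 counted as detected on both arrays. Signals near background limit what can be read from Ccl1, Ccl17, Ccl28, Cxcl5, Cxcl17 and Cxcr2 (1.92, or 1.01 under normexp), and the absence of replicate arrays limits every difference.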
